A study of Mus musculus with 9 samples.

Results

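The EGF family ligands and ErbB receptors were taken as 10 genes, namely the ligand genes Hbegf, Ereg, Areg, Tgfa, Btc and Nrg1 and the receptor genes Egfr, Erbb2, Erbb3 and Erbb4. All probe sets that the platform annotation lists under these symbols were used, which gave 20 of 45037 probe sets. They measured 9 of the 10 genes, and Areg, which encodes amphiregulin, was not analysed here. RNA from 9 mouse cultures was measured on Affymetrix arrays, which read each transcript through sets of short probes, in 3 groups of 3 arrays. The question set by the design was how glioma stem cells and neural stem cells without Nf1 differ from wild-type neural stem cells.

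The GSC group held cultured glioma stem cells from optic gliomas, with the optic nerve given as tissue, of 3-month-old mice labelled Nf1+/-GFAP CKO. GFAP is an astroglial gene. The labels did not say how the GFAP element acts or whether the GSC arrays came from separate tumours. The Nf1-null NSC group held neural stem cells from the third ventricle of Nf1flox/flox pups at postnatal day 1 that received a virus carrying Cre recombinase, which cuts out the floxed part of Nf1. The WT NSC group held cells of the same source and genotype that received a LacZ control virus. The NSC groups therefore differed in the virus, while the GSC group differed from both in tissue, age and germline genotype as well, and these cannot be told apart. All mice were C57BL/6, and all cultures grew with 20 ng/ml EGF and 20 ng/ml FGF, so every value below was taken with a ligand of Egfr already supplied. Independent cultures were stated for the neural stem cells only, so p-values measure the spread between these samples, which may be partly technical.

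EGF family ligands are made as membrane-anchored precursors, and metalloproteases cut them free to bind receptors on the same or neighbouring cells. Egfr, Erbb3 and Erbb4 bind ligands and Erbb2 serves as their partner, and a bound pair of receptors signals through Ras and PI3 kinase. Neurofibromin, the product of Nf1, turns Ras off, and EGF is a standard growth factor for keeping neural stem cells dividing in culture.

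Median array signals lay between 264.0 and 286.7, in the linear intensity units of the deposited table. Differences below are in log2(signal + 1), and a gene passed at an adjusted p under 0.05 in limma, adjusted over 18193 genes. Each gene was read from its brightest probe set unless another is named. Nf1 averaged 591 ± 37.8 in GSC, 551 ± 110 in Nf1-null NSC and 1020 ± 111 in WT NSC (SD, n = 3 each). It was lower in GSC than in WT NSC by a log2 difference of -0.78 (adjusted p = 0.0441 in limma) and differed by -0.90 between Nf1-null and WT NSC (adjusted p = 0.123). The call in GSC was lost with the mean over all Nf1 probe sets (adjusted p = 0.417) and without any 1 of the GSC or WT NSC arrays. Whether its probes fall inside the floxed part is unknown here, so this check is a weak one. All 7 neural stem cell markers measured were among the brighter 9097 genes. Of these, Msi1 was 2.18-fold lower in GSC than in WT NSC (adjusted p = 0.0337) and the others passed in no comparison, with Nes at a log2 difference of 1.48 (adjusted p = 0.0558) and Hes5 at -3.21 (adjusted p = 0.146) between GSC and WT NSC. Xist, which cells with 2 X chromosomes express, had signals of 385.6 and 587.7 on the third array of each NSC group and of 30974.5 or more on the other 7 arrays. The sex make-up therefore differed among the NSC arrays and was not adjusted for. GSC array 1 correlated with GSC arrays 2 and 3 at r = 0.950 and 0.944 over the brighter genes, against 0.989 between arrays 2 and 3, so values without GSC array 1 are given beside the main results.

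Among the ligands, Hbegf was higher in GSC than in WT NSC, and Ereg was lower in GSC than in Nf1-null NSC. The other receptors and ligands did not pass in any comparison, although Egfr gave lower signals on every GSC array than on any WT NSC array. Of the 9 measured genes, 1 rose and none fell in GSC relative to WT NSC, against 9.06% of all genes that passed in either direction. In GSC relative to Nf1-null NSC 1 fell and none rose, against 1.75% of all genes. In Nf1-null relative to WT NSC 0 of 9 passed in limma, against 0% of all genes, and 3 had an unadjusted p under 0.05, against 16.8%. The median log2 difference of the 9 genes was 0.43 in GSC relative to Nf1-null NSC, -0.25 in GSC relative to WT NSC and -0.06 in Nf1-null relative to WT NSC, beside medians over all genes of -0.04, -0.09 and -0.06. Each group enters a pair of these comparisons, so their differences are not independent of each other.

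**Figure D1:**
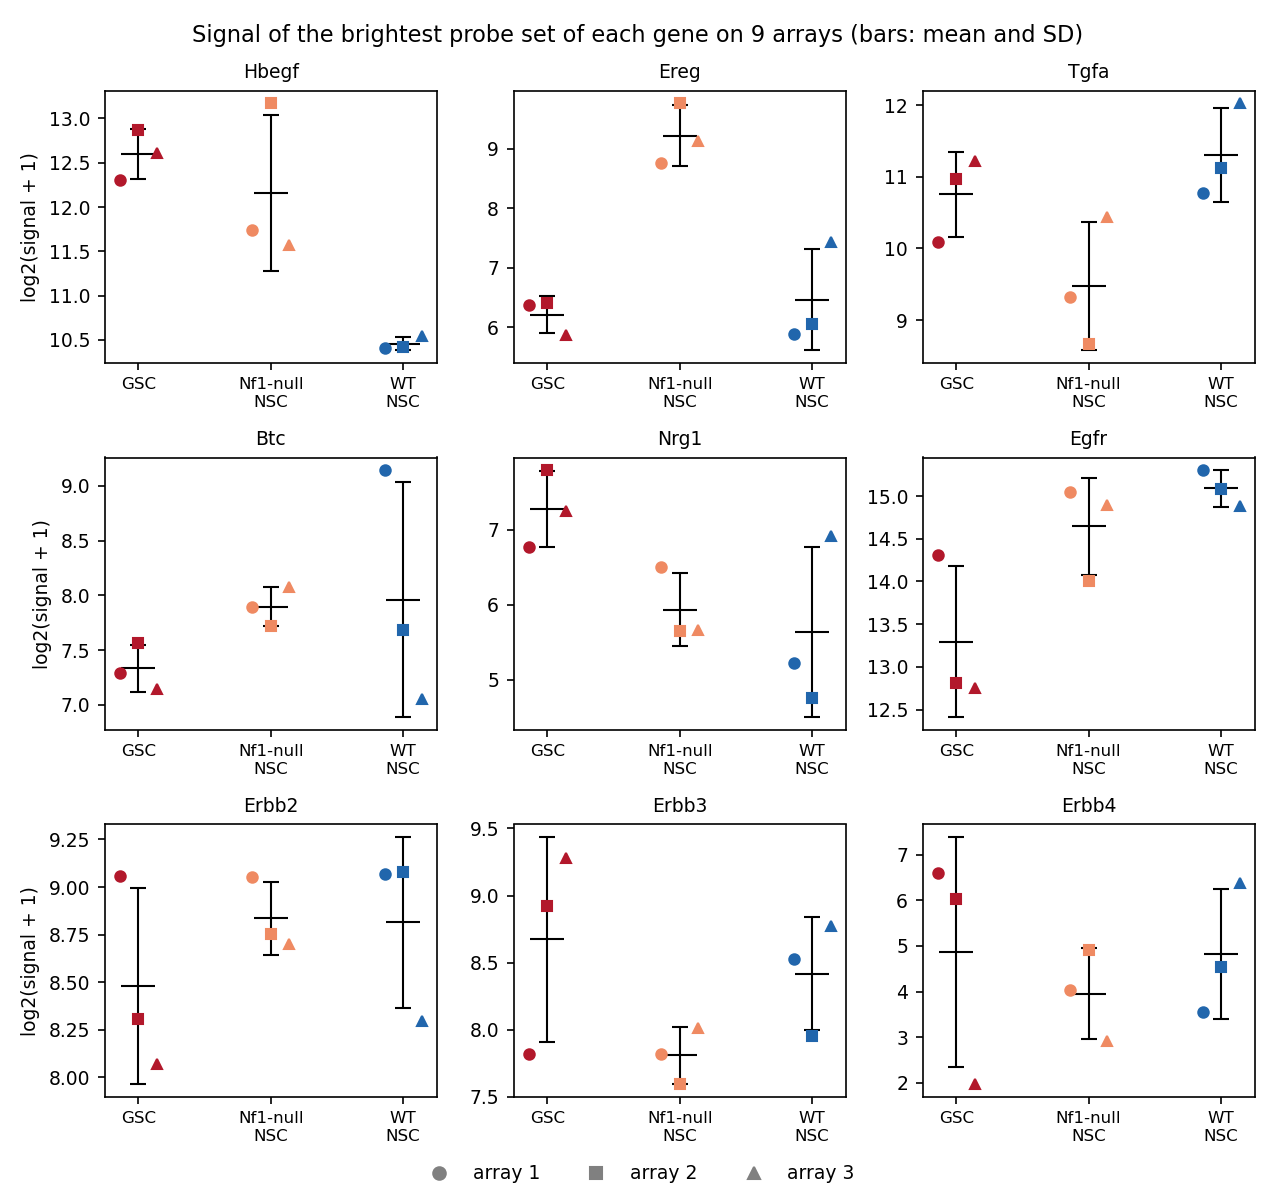
Log2(signal + 1) of the brightest probe set of each of the 9 measured genes, with 1 point per array and bars for the mean and SD of 3 arrays, for GSC, Nf1-null NSC and WT NSC from left to right; each panel has its own scale, and levels of different genes are not to be compared. Hbegf lies above all WT NSC arrays in both other groups, Ereg is high on the 3 Nf1-null NSC arrays, and Egfr is lowest on GSC arrays 2 and 3.

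Hbegf encodes heparin-binding EGF-like growth factor, a ligand of Egfr and Erbb4 that binds heparan sulphate. Its probe set 1418350_at gave signals of 5052.9, 7483.1 and 6271.0 in GSC, 3430.7, 9255.1 and 3036.5 in Nf1-null NSC, against 1356.8, 1370.0 and 1491.5 in WT NSC. Every GSC and every Nf1-null NSC array lay above all WT NSC arrays, and the GSC values lay inside the range of the Nf1-null NSC values. Means were 6269 ± 1215 in GSC, 5241 ± 3482 in Nf1-null NSC and 1406 ± 74.3 in WT NSC (SD, n = 3 each). Hbegf was 4.40-fold higher in GSC than in WT NSC (95% interval 2.29 to 8.48; adjusted p = 0.0251 in limma). It was 3.26-fold higher in Nf1-null than in WT NSC without passing (adjusted p = 0.149), and the 3 arrays of each group did not overlap. Between NSC arrays of the same number the log2 differences were 1.34, 2.76 and 1.03. With the replicate number as a block in limma, Hbegf passed among the brighter genes (adjusted p = 0.0243) but not among all genes (adjusted p = 0.139). The block fit among brighter genes was chosen after seeing the data and called 11.9% of them, and the labels do not state this pairing. The log2 difference between GSC and Nf1-null NSC was 0.43 (adjusted p = 0.653).

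The other Hbegf probe set, 1418349_at, gave 2219.2, 3076.5 and 2676.2 in GSC, 1478.7, 3911.8 and 1734.9 in Nf1-null NSC, against 684.0, 724.1 and 977.3 in WT NSC. The order of the groups was that of 1418350_at, and array 2 was again the highest of the Nf1-null NSC arrays. In the limma fit of all probe sets one by one, both passed in GSC against WT NSC, with log2 differences of 1.74 for 1418349_at (adjusted p = 0.0442) and 2.14 for 1418350_at (adjusted p = 0.0351). The Hbegf call between GSC and WT NSC rested on few arrays. It was lost without GSC array 2 or 3 or without any 1 of the WT NSC arrays. Over all 20 alternative settings the log2 differences lay between 1.94 and 2.28, with adjusted p-values of up to 0.0924 in limma. The lowest difference was that with the mean over the Hbegf probe sets. Without GSC array 1 the call was kept (adjusted p = 0.0332).

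Summed marker signals of 2 other cell types were likewise lower on all WT NSC arrays than on the arrays of both other groups. The 8 endothelial markers summed to 8668.9 to 10578.1 in GSC, 4617.2 to 7692.6 in Nf1-null NSC, against 1293.9 to 1668.8 in WT NSC. Of these, Plvap and Cd93 rose in GSC relative to WT NSC, and the defining markers Pecam1, Cdh5, Tek and Cldn5 were in the dimmest 25% of genes. Kdr, at a log2 difference of -0.87 between GSC and WT NSC, and Cdh5, at -0.98, lay lower on all GSC than on all WT NSC arrays without passing. The 6 measured Schwann and neural crest markers summed to 28855 to 46647 in GSC, 22036 to 41826 in Nf1-null NSC, against 5649 to 10068 in WT NSC. Of these, Gap43 and Cdh19 rose in GSC relative to WT NSC. Pmp22, at a log2 difference of 2.08, and Ngfr, at 0.57, were positive without passing. Egr2, at -0.61, and Foxd3, at -0.15, were negative without passing, and Foxd3 was in the dimmest 25% of genes. The part of either list in the Hbegf result was not tested. In bulk RNA, a change in the share of cells that make a transcript and a change in its amount per cell cannot be told apart.

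**Figure D2:**
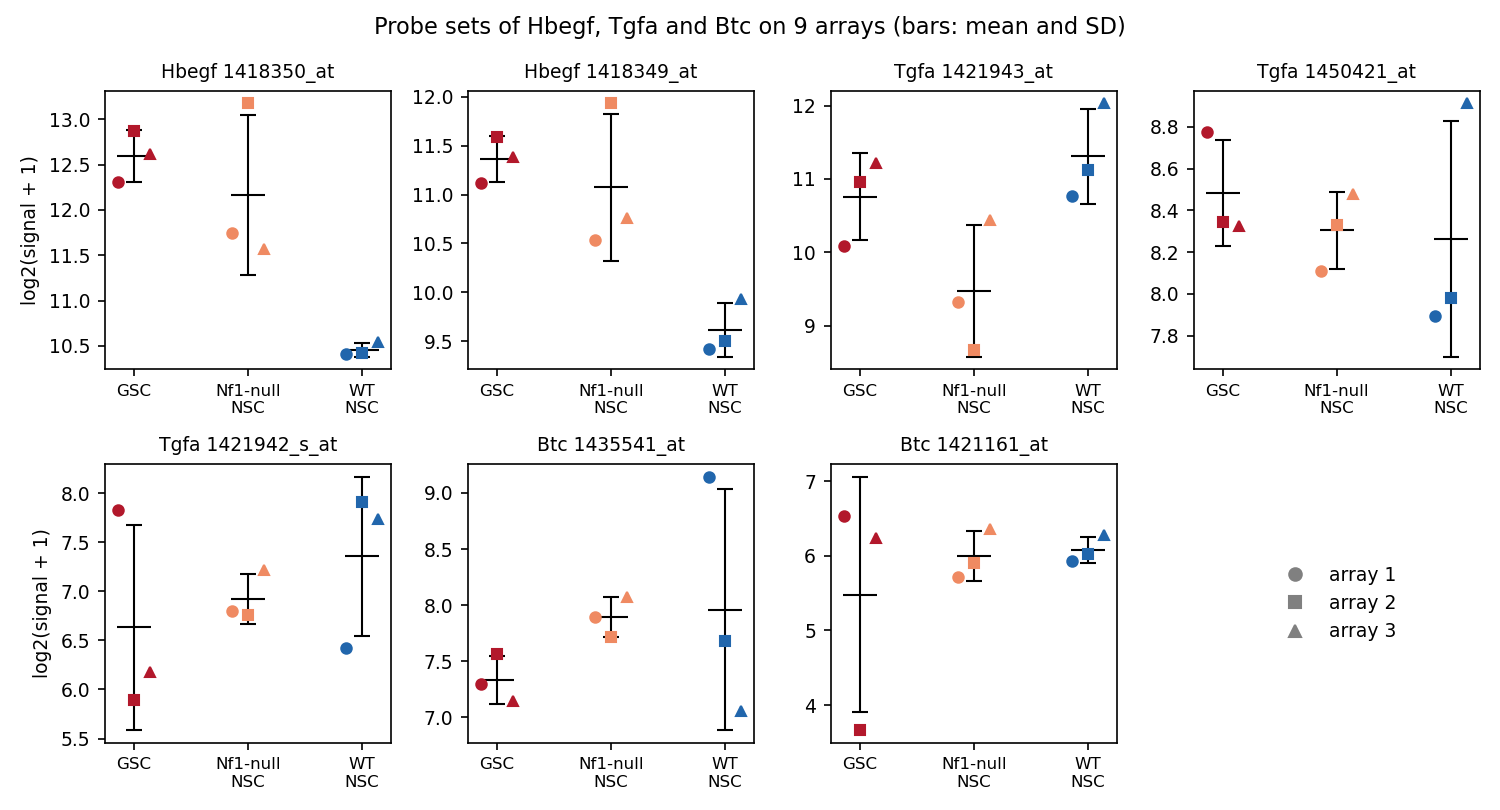
Log2(signal + 1) of each probe set of Hbegf, Tgfa and Btc, with 1 point per array and bars for the mean and SD of 3 arrays, for GSC, Nf1-null NSC and WT NSC from left to right. The Hbegf probe sets show the groups in the same order, while the low Nf1-null NSC values of Tgfa appear in 1421943_at and not in the dimmer 1450421_at.

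Ereg encodes epiregulin, a ligand of Egfr and Erbb4. Its probe set 1419431_at gave 82.1, 83.5 and 57.2 in GSC, 430.3, 872.0 and 557.7 in Nf1-null NSC, against 58.5, 65.2 and 172.1 in WT NSC. The Nf1-null NSC arrays were all above the arrays of both other groups, which overlapped each other. Means were 74.3 ± 14.8 in GSC, 620 ± 227 in Nf1-null NSC and 98.6 ± 63.7 in WT NSC (SD, n = 3 each). Ereg was 8.01-fold lower in GSC than in Nf1-null NSC (95% interval 3.88 to 16.5; adjusted p = 0.0292 in limma). It was 6.76-fold higher in Nf1-null than in WT NSC, which did not pass (adjusted p = 0.0825). GSC and WT NSC differed by a log2 value of -0.25 (adjusted p = 0.777), and by 0.24 without WT NSC array 3.

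Between NSC arrays of the same number, Ereg was higher in the Nf1-null NSC by log2 differences of 2.86, 3.72 and 1.69. Ereg lay at a low level in GSC and WT NSC, near the limit of the dimmest 25% of genes, which was a signal of 84.3. All GSC signals were below it, so the fold against GSC rests on dim values, and the log2 difference of -3.00 was -2.77 with a pseudocount of 16 (adjusted p = 0.0165). Its call between GSC and Nf1-null NSC was made in 10 of 18 alternative settings, with log2 differences of -3.23 to -2.73 when arrays were left out in turn. These settings include the fit without the dimmest 25% of genes, a filter that Ereg passed only through its Nf1-null NSC signals, so that fit adds no support. The call was lost without GSC array 2 or 3, without any 1 of the Nf1-null NSC arrays, or without WT NSC array 2 (adjusted p between 0.0526 and 0.102), and with the replicate number as a block (adjusted p = 0.0618). Without GSC array 1 it was kept (adjusted p = 0.0336). The 8 microglia and macrophage markers summed to 599.6 to 732 in GSC, 516 to 599.5 in Nf1-null NSC, against 731.8 to 1021.2 in WT NSC. Of these, Cx3cr1, Aif1, Ptprc, Itgam, C1qa and C1qb were in the dimmest 25% of genes. The part of this list in the Ereg values was not tested.

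In the RefSeq order of protein-coding genes, Ereg stands between Epgn, which encodes epigen, and Areg, and Btc follows Areg. The log2 differences between Nf1-null and WT NSC were -0.35 for Epgn and -0.06 for Btc, beside 2.76 for Ereg. None of these 3 passed in that comparison.

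Btc encodes betacellulin, also a ligand of Egfr and Erbb4. Its probe set 1435541_at gave 155.9, 188.7 and 140.4 in GSC, 237.3, 209.3 and 268.2 in Nf1-null NSC, against 565.3, 204.2 and 131.8 in WT NSC. WT NSC array 1 was the highest of all 9 and array 3 the lowest, and the GSC arrays were all below the Nf1-null NSC arrays. The log2 difference was -0.56 in GSC relative to Nf1-null NSC (adjusted p = 0.617), -0.62 in GSC relative to WT NSC (adjusted p = 0.455) and -0.06 in Nf1-null relative to WT NSC (adjusted p = 0.963). Without WT NSC array 1 the difference between GSC and WT NSC was -0.03. The second probe set, 1421161_at, lay between 11.7 and 91.6 on all arrays, with overlapping groups.

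Tgfa encodes transforming growth factor alpha, which binds Egfr. Its probe set 1421943_at gave 1085.0, 1997.1 and 2385.9 in GSC, 640.8, 403.3 and 1385.9 in Nf1-null NSC, against 1743.6, 2223.3 and 4190.4 in WT NSC. The Nf1-null NSC arrays lay below all WT NSC arrays, and the GSC arrays overlapped both groups. Means were 1823 ± 668 in GSC, 810 ± 513 in Nf1-null NSC and 2719 ± 1297 in WT NSC (SD, n = 3 each). Tgfa was 3.56-fold lower in Nf1-null than in WT NSC without passing (log2 difference -1.83, SE 0.54; adjusted p = 0.187 in limma). Between NSC arrays of the same number the log2 differences were -1.44, -2.46 and -1.60. GSC differed from Nf1-null NSC by 1.28 (adjusted p = 0.294) and from WT NSC by -0.55 (adjusted p = 0.569).

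The probe sets of Tgfa did not give the same picture, although the annotation lists the same target sequence for all 3. Probe set 1450421_at gave 437.1, 323.8 and 319.9 in GSC, 274.8, 320.3 and 355.2 in Nf1-null NSC, against 237.2, 251.8 and 481.1 in WT NSC, and the NSC groups overlapped with a log2 difference of 0.04. Probe set 1421942_s_at lay between 58.3 and 239.8 on all arrays, and its log2 difference between Nf1-null and WT NSC was -0.43. With the mean over the 3 probe sets in place of the brightest, the Tgfa difference was 0.39 between GSC and Nf1-null NSC, -0.35 between GSC and WT NSC and -0.74 between Nf1-null and WT NSC.

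Nrg1 encodes neuregulin 1, a ligand of Erbb3 and Erbb4, and its probe set was in the dimmest 25% of genes. Probe set 1456524_at gave 108.8, 222.0 and 152.1 in GSC, 89.6, 49.2 and 49.8 in Nf1-null NSC, against 36.4, 26.2 and 120.3 in WT NSC. The GSC arrays lay above all Nf1-null NSC arrays, and WT NSC array 3 lay among the GSC arrays. The difference was 2.53-fold between GSC and Nf1-null NSC (adjusted p = 0.3) and 3.12-fold between GSC and WT NSC (adjusted p = 0.117), and neither passed. Without WT NSC array 3, the log2 difference between GSC and WT NSC was 2.28 (adjusted p = 0.0447). Nf1-null and WT NSC differed by a log2 value of 0.30 (adjusted p = 0.829).

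**Figure D3:**
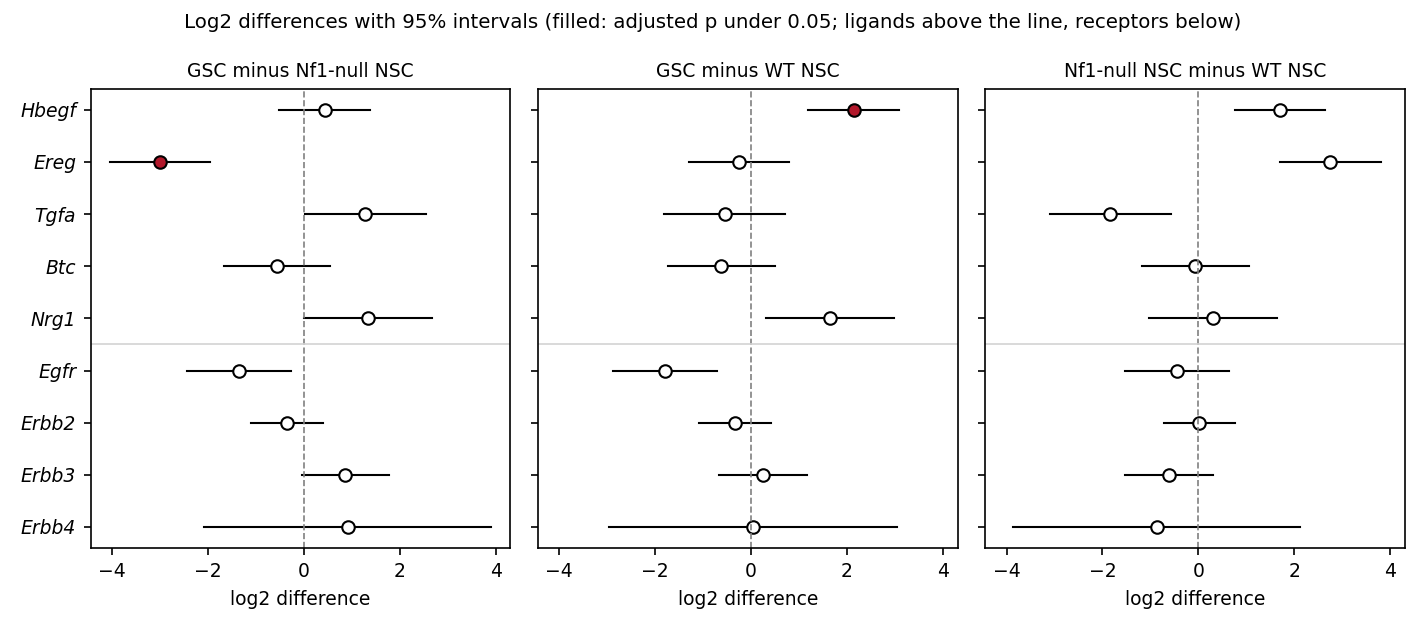
Log2 differences of the 9 measured genes in 3 comparisons, with 95% intervals from limma and filled points at an adjusted p under 0.05; ligands are above the line and receptors below it. The filled points are Ereg in GSC against Nf1-null NSC and Hbegf in GSC against WT NSC, and the intervals of the dim Erbb4 probe set are the widest.

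Egfr encodes the receptor for EGF and for most of the ligands above, and its brightest probe set was lower in GSC than in WT NSC by a difference that narrowly missed the threshold. Probe set 1435888_at gave 20362.6, 7216.8 and 6882.8 in GSC, 33966.7, 16383.0 and 30358.6 in Nf1-null NSC, against 40518.0, 34557.8 and 30210.7 in WT NSC. All GSC arrays lay below all WT NSC arrays, while GSC array 1 lay above Nf1-null NSC array 2. Means were 11487 ± 7688 in GSC, 26903 ± 9287 in Nf1-null NSC and 35096 ± 5175 in WT NSC (SD, n = 3 each). The signal was 3.47-fold lower in GSC than in WT NSC (95% interval 1.64 to 7.32; adjusted p = 0.0533 in limma). It was 2.56-fold lower in GSC than in Nf1-null NSC (adjusted p = 0.206). Nf1-null and WT NSC differed by a log2 value of -0.44 (adjusted p = 0.674), with -0.25, -1.08 and 0.01 between arrays of the same number.

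Without GSC array 1, the log2 difference was -2.31 against WT NSC (adjusted p = 0.0135) and -1.86 against Nf1-null NSC (adjusted p = 0.0359). In all, the difference between GSC and WT NSC passed in 8 of 20 alternative settings, 7 of which kept GSC array 1. Among them was the replicate block (adjusted p = 0.0414 in limma), which matched GSC to NSC arrays by number only. With the mean over all Egfr probe sets the difference between GSC and WT NSC was -1.04, and that between GSC and Nf1-null NSC was -0.31 (adjusted p = 0.665). The 8 astrocyte markers summed to 93649 to 115813 in GSC, 80335 to 147865 in Nf1-null NSC, against 162467 to 207178 in WT NSC, and the members of this list differed among themselves. Aldh1l1 averaged 394 ± 232 in GSC, 32869 ± 7554 in Nf1-null NSC and 36237 ± 6028 in WT NSC, and Aqp4 averaged 147 ± 99.4 in GSC, 5085 ± 3213 in Nf1-null NSC and 19838 ± 3848 in WT NSC (SD, n = 3 each). Both fell in GSC relative to each NSC group, and Slc1a3 fell relative to WT NSC (adjusted p = 0.0472). S100b averaged 28413 ± 9486 in GSC, 5712 ± 3891 in Nf1-null NSC and 7558 ± 3474 in WT NSC without passing. In relation to Egfr, their part in the Egfr values was not tested.

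Egfr had 7 probe sets, of which 7 gave negative log2 differences between GSC and WT NSC, ranging from -1.80 to -0.14. Lower and non-overlapping GSC signals were found in 5 of the 7, against 17.2% of all probe sets. In the limma fit of all probe sets, 2 of the 7 passed, and 4.69% of all probe sets did so in either direction. Probe set 1424932_at gave 5803.6, 3095.9 and 2769.6 in GSC, 9178.9, 5320.0 and 7730.7 in Nf1-null NSC, against 13740.2, 12238.1 and 8766.4 in WT NSC. Here the GSC arrays lay below all WT NSC arrays and overlapped the Nf1-null NSC arrays, with a log2 difference of -1.63 from WT NSC (SE 0.35; adjusted p = 0.0452).

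Probe set 1460420_a_at gave 1961.7, 1511.9 and 1767.6 in GSC, 2256.8, 1928.5 and 2773.6 in Nf1-null NSC, against 3728.0, 3618.6 and 3428.5 in WT NSC. The spread within groups was small, and the WT NSC arrays were above all others. The log2 difference was -1.05 in GSC relative to WT NSC (SE 0.19; adjusted p = 0.0333) and -0.65 in Nf1-null relative to WT NSC (adjusted p = 0.243). When arrays were left out in turn, the GSC difference from WT NSC ranged from -1.96 to -1.42 for 1424932_at and from -1.13 to -0.95 for 1460420_a_at. The call was made in 9 of 19 and 12 of 19 alternative settings.

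The other dimmer Egfr probe sets gave log2 differences between GSC and WT NSC of -1.26 for 1451530_at (adjusted p = 0.0996), -1.07 for 1457563_at, -0.32 for 1454313_at and -0.14 for 1432647_at. Between GSC and Nf1-null NSC, 4 of the 7 were negative and 3 positive. The probe sets are not independent, since 1424932_at shares a target accession with 1451530_at, and 1432647_at shares one with 1454313_at.

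**Figure D4:**
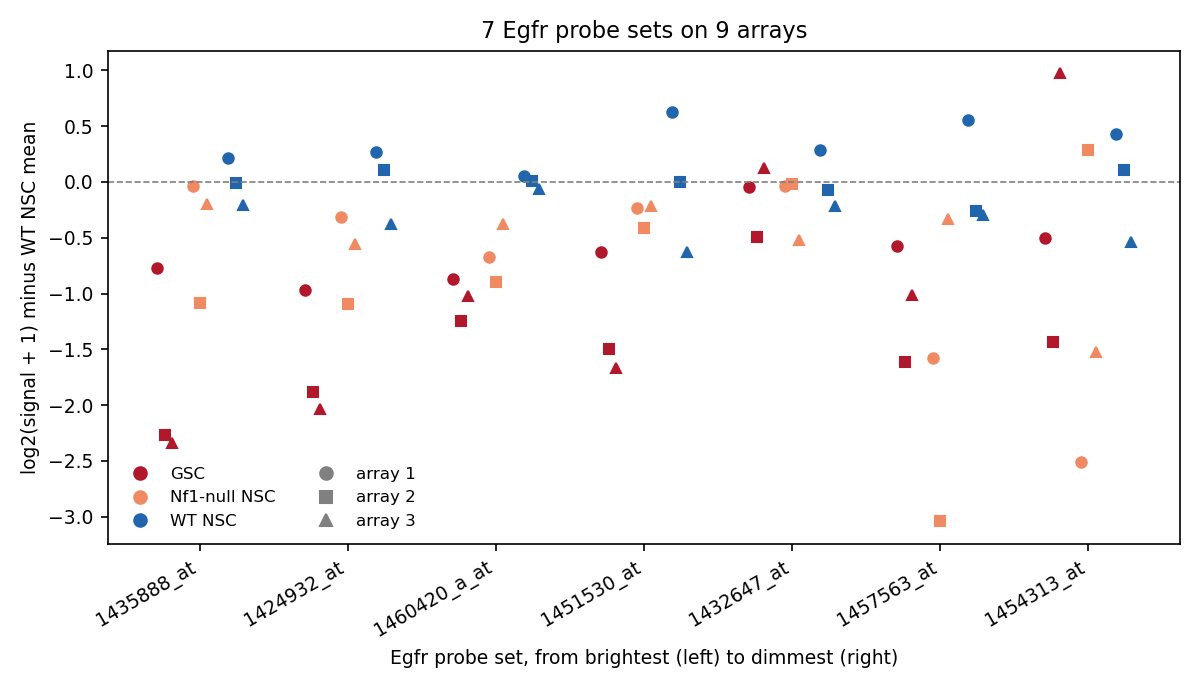
Log2(signal + 1) of 7 Egfr probe sets on each array, minus the WT NSC mean of that probe set, from the brightest probe set at the left to the dimmest at the right; points are arrays of GSC, Nf1-null NSC and WT NSC. In the 4 brightest probe sets and in the dim 1457563_at all GSC arrays lie below the WT NSC arrays. The widest scatter within a group is that of the Nf1-null NSC arrays in the dimmest probe sets, 1457563_at and 1454313_at.

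The 250 bases that end just before the RefSeq start of Egfr are shown because Egfr is the receptor whose signal differed most clearly between groups. They are from the mouse build GRCm38.p6, and capitals mark the GC box, GGGCGG or its reverse complement, a letter pattern bound by Sp1.
Egfr promoter, chr11:16751953-16752202, plus strand: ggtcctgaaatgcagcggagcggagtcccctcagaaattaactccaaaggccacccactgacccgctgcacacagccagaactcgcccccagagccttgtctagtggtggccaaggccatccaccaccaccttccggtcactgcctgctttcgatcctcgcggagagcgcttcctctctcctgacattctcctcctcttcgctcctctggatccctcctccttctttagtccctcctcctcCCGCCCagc
The stretch holds 1 GC box, and 32.7% of all 32851 promoters of this length hold at least 1. It holds neither the AP-1 letters TGANTCA on either strand, found in 6.75% of all promoters, nor the TATA box letters TATAAA, found in 12.4%. Its GC content was 60.8%, against a median of 52.4% over all promoters. These letter matches are descriptions and show no binding.

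Erbb2, the receptor with no ligand of its own, gave 532.7, 315.7 and 267.9 in GSC, 529.9, 430.0 and 414.9 in Nf1-null NSC, against 535.5, 540.1 and 313.2 in WT NSC with probe set 1424919_at. All 3 groups overlapped. The log2 difference was -0.36 in GSC relative to Nf1-null NSC (adjusted p = 0.637), -0.33 in GSC relative to WT NSC (adjusted p = 0.557) and 0.02 in Nf1-null relative to WT NSC (adjusted p = 0.983).

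Erbb3, whose own kinase is weak and which signals mainly with a partner, gave 224.3, 484.2 and 621.3 in GSC, 224.8, 191.9 and 257.0 in Nf1-null NSC, against 367.8, 246.6 and 437.0 in WT NSC with probe set 1434606_at. GSC arrays 2 and 3 were the highest of the 9, and GSC array 1 was at the level of the Nf1-null NSC arrays, so the groups overlapped. The log2 difference was 0.87 in GSC relative to Nf1-null NSC (adjusted p = 0.33), 0.26 in GSC relative to WT NSC (adjusted p = 0.732) and -0.61 in Nf1-null relative to WT NSC (adjusted p = 0.476). Without GSC array 1 it was 1.29 in GSC relative to Nf1-null NSC (adjusted p = 0.0637). Between NSC arrays of the same number, Erbb3 differed by -0.71, -0.36 and -0.76. The oligodendrocyte precursor markers, a lineage in which Erbb3 is known to be expressed, summed to 140028 to 151627 in GSC, 87094.4 to 111109 in Nf1-null NSC, against 133654 to 150421 in WT NSC. All 8 of them had negative log2 differences in Nf1-null relative to WT NSC, where none passed. In GSC relative to Nf1-null NSC all 8 were positive. There Pcdh15, at 3.59 (adjusted p = 0.0281 in limma), and Lhfpl3, at 2.48 (adjusted p = 0.0391), passed. In GSC relative to WT NSC 5 were positive and 3 negative, and none passed. Mbp, a gene of myelin, gave 2601.3, 29057.3 and 65239.2 in GSC, 376.5, 189.2 and 297.4 in Nf1-null NSC, against 2008.8, 495.4 and 6599.4 in WT NSC, in the array order of Erbb3 within GSC. Mobp, Opalin and Cnp did not have this array order. Of the 7 myelinating oligodendrocyte markers measured, Opalin fell in GSC relative to Nf1-null NSC and no other passed. In GSC relative to each NSC group, 4 of the 7 were positive and 3 negative. Mobp was at -2.04 relative to Nf1-null NSC and -1.71 relative to WT NSC, and Cnp at -0.16 and -0.83. Mog, Mobp and Ermn were in the dimmest 25% of genes, and the sums were 27044.6 to 92737.8 in GSC, 20368.9 to 44951.5 in Nf1-null NSC, against 41991.7 to 62994.2 in WT NSC. The part of either list in the Erbb3 values was not tested. The second probe set, 1452482_at, lay between 5.4 and 45.0 on all arrays.

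Erbb4, a receptor for neuregulins and for Hbegf, Ereg and Btc, was in the dimmest 25% of genes. Probe set 1427783_at gave 95.5, 64.7 and 2.9 in GSC, 15.4, 28.9 and 6.6 in Nf1-null NSC, against 10.8, 22.1 and 82.4 in WT NSC. Signals within each group differed more than the groups did, and the log2 differences of 0.91 between GSC and Nf1-null NSC, 0.04 between GSC and WT NSC and -0.87 between Nf1-null and WT NSC did not pass (adjusted p = 0.781, 0.99 and 0.774 in limma). The median SD between replicate arrays was 0.95 on the log2 scale in the dimmest 25% of genes and 0.17 in the brightest 25%. The 95% interval of the difference between GSC and WT NSC ran from -2.96 to 3.04 on the log2 scale for Erbb4. With 3 arrays per group, its size and direction were therefore left undetermined over that range.

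Non-overlapping arrays were found for 3 of the 9 genes in GSC against Nf1-null NSC, against 21.9% of all genes, namely Ereg and Btc lower and Nrg1 higher. They were found for 2 of 9 in GSC against WT NSC, against 34.8% of all genes, namely Hbegf higher and Egfr lower. In Nf1-null against WT NSC they were found for 3 of 9, against 23.8% of all genes, namely Hbegf and Ereg higher and Tgfa lower. The exact permutation p of each such gene was 0.1, the smallest that 3 arrays against 3 allow. Over the 20 probe sets, 1 fell in GSC relative to Nf1-null NSC, against 0.722% of all probe sets called, and 2 rose and 2 fell in GSC relative to WT NSC, against 4.69%.

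Of 37 other genes of the pathway, 7 passed in GSC relative to WT NSC, against 9.06% of all genes, of which 3 rose and 4 fell. None of the 37 passed in GSC relative to Nf1-null NSC or in Nf1-null relative to WT NSC. The 5 other ligand genes, Egf, Epgn, Nrg2, Nrg3 and Nrg4, passed in no comparison. Of 9 genes for ligand release, Adam12 rose and Timp3 fell. Of 10 genes for receptor inhibition and turnover, Socs5 and Ubash3b rose, and Lrig1 and Cblb fell. Of 13 adaptors and effectors, Eps15 fell.

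Adam12, a metalloprotease known to cut the Hbegf precursor, gave 12982, 19140.2 and 22172.5 in GSC, 8629.1, 15366 and 13266.6 in Nf1-null NSC, against 3985.5, 1467.3 and 4064.2 in WT NSC. The WT NSC arrays were below all others. Adam12 was 6.14-fold higher in GSC than in WT NSC (adjusted p = 0.0198 in limma). Timp3, an inhibitor of such metalloproteases, gave 8508.3, 3319.9 and 2275.5 in GSC, 10249.4, 8331.4 and 12583.1 in Nf1-null NSC, against 20443.5, 21329.6 and 15245.8 in WT NSC. It was 4.69-fold lower in GSC than in WT NSC (adjusted p = 0.0299), and GSC array 1 was the highest of the GSC arrays.

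Lrig1, a membrane protein that lowers the amount of Egfr on cells, averaged 17693 ± 2161 in GSC, 23577 ± 2573 in Nf1-null NSC and 32325 ± 4932 in WT NSC (SD, n = 3 each), and was 1.82-fold lower in GSC than in WT NSC (adjusted p = 0.0305). Cblb, a ubiquitin ligase that marks activated receptors for breakdown, averaged 1207 ± 448 in GSC, 2135 ± 51.4 in Nf1-null NSC and 2646 ± 314 in WT NSC, and was 2.27-fold lower in GSC than in WT NSC (adjusted p = 0.0318). Eps15, an endocytic adaptor and Egfr substrate, averaged 6450 ± 3230 in GSC, 15758 ± 4373 in Nf1-null NSC and 23365 ± 4237 in WT NSC, and was 3.86-fold lower in GSC than in WT NSC (adjusted p = 0.0238). These 3 genes, like Egfr, had their highest mean in WT NSC and their lowest in GSC.

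Socs5, a suppressor of cytokine and Egfr signalling, averaged 9257 ± 4322 in GSC, 4466 ± 328 in Nf1-null NSC and 2490 ± 416 in WT NSC (SD, n = 3 each), and was 3.42-fold higher in GSC than in WT NSC (adjusted p = 0.0315). Ubash3b, a phosphatase that counters Cbl-driven receptor breakdown, averaged 1776 ± 450 in GSC, 1429 ± 389 in Nf1-null NSC and 738 ± 166 in WT NSC, and was 2.39-fold higher in GSC than in WT NSC (adjusted p = 0.0371). Of the 37 genes, 0 passed in GSC relative to WT NSC in limma without GSC array 2 or without GSC array 3, 1 passed without any 1 of the WT NSC arrays, and 9 passed without GSC array 1. This stood beside 1.19%, 1.44% and 9.65% of all genes without GSC arrays 2, 3 and 1. With WT NSC arrays 1, 2 and 3 left out in turn, the shares of all genes were 4.83%, 1.18% and 2.52%. The signals of GSC array 1 were nearest to WT NSC for Timp3, Lrig1, Cblb, Eps15, Adam12, Socs5 and Ubash3b. Without it, the log2 difference between GSC and WT NSC was -2.77 for Timp3, -1.47 for Cblb, -2.33 for Eps15, 2.84 for Adam12, 2.23 for Socs5 and 1.47 for Ubash3b.

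**Figure D5:**
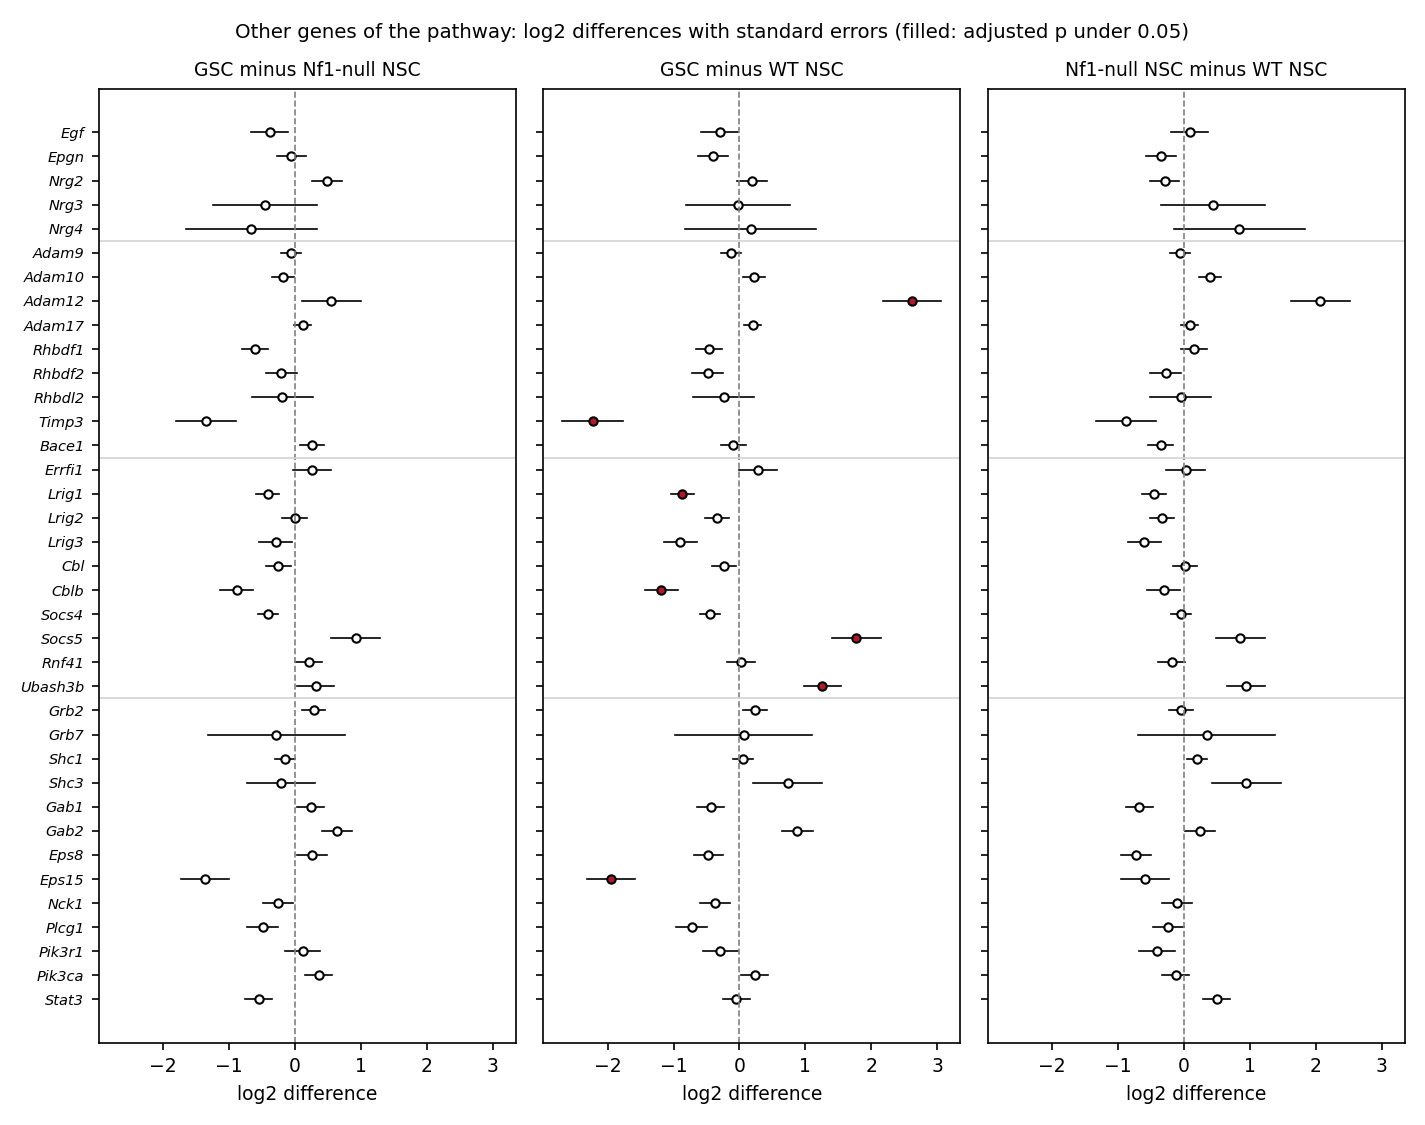
Log2 differences of 37 other pathway genes in 3 comparisons, with standard errors from limma and filled points at an adjusted p under 0.05. The 7 filled points are all in GSC against WT NSC, 3 to the right of 0 and 4 to the left.

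For the 3 members among the brighter genes, the genes with the most similar log2 signals over the 9 arrays were found by Pearson's r among 8861 genes. They were Bmpr1b (0.993), Marcksl1 (0.991) and Nop53 (0.988) for Egfr. For Hbegf they were Klf3 (0.983), Tmem185b (0.983) and Aak1 (0.978), and for Tgfa Tnr (0.990), Gpr155 (0.985) and Tmem184c (0.984). These are the highest of many values over 9 arrays in 3 groups, and they are given as a description only.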

How the data were processed

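The deposited table holds 1 intensity per probe set and array on a linear scale, as the authors deposited it. Each culture gave 100 ng of RNA for biotin-labelled cRNA, per the labels. For the summary of probes into probe sets, the tool was not given in the sources used here. The mean of each array without its lowest and highest 2% of probe sets was 1491 to 1492, so the arrays were taken as scaled to a common level and were not normalized again. Such scaling removes differences in total RNA between samples.

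Genes came from the platform annotation. Probe sets with several symbols (932) or none (9160) were left out of the gene fit, which kept the brightest probe set of each of 18193 genes. Log2(intensity + 1) was fitted with limma 3.58.1 in R 4.3.3 on all 9 arrays with 3 group means, and p-values were adjusted by Benjamini-Hochberg over all genes; a second fit took all 45037 probe sets. The fit had 6 residual and 1.63 prior degrees of freedom. It was tested on simulated data. Single values were also compared with a two-sided exact permutation test. Figures were drawn with matplotlib 3.10.9 in Python 3.11.15. The number of arrays limits the precision.

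Same-numbered Nf1-null and WT NSC arrays deviated together over the brighter 9097 genes (r = 0.64, 0.24 and 0.59), so a fit with the number as a block was run; the labels do not state this pairing. GSC came from other mice.

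The members and gene lists were chosen with earlier results of these data known. All members were named, with Nf1, every other pathway gene that passed in a comparison, and the 3 most similar genes of each brighter member. The alternatives were quantile normalization, a median shift, a pseudocount of 16, the mean over probe sets, trended and robust spreads, only brighter genes, 6 arrays, the block and each array left out. Some listed markers are not reported here.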

Additional observations from a re-analysis of the deposited data

Results flagged for a closer look

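Ereg differed between GSC and Nf1-null NSC in its difference from WT NSC. The log2 difference from WT NSC was -0.25 in GSC and 2.76 in Nf1-null NSC, and the difference between these values was -3.00 (adjusted p = 0.0292 in limma). All 3 Nf1-null NSC arrays lay above all GSC arrays. Both values use the same WT NSC arrays, which cancel in the difference.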

How the results depend on the processing

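Each gene result was recomputed under up to 20 alternatives. The member count in GSC against Nf1-null NSC (1 of 9) was 0 with 6 arrays, 0 with the replicate block and 0 to 2 with arrays left out; that among 20 probe sets (1) was 0, 0 and 0 to 1. The brighter genes hold only 3 of the 9 members, without Ereg, and 11 of the 20 probe sets: there the counts were 0 and 0. With the block they were 2 (Egfr and Tgfa) and 3, beside 10.4% of the brighter genes and 8.24% of the brighter probe sets called. In GSC against WT NSC the member count (1) was 2 with a trended (14.7% of genes tested called) or robust spread (15.2%) and without the dimmest 25% (18.2%). It was also 2 with brighter genes (27.2%), the pseudocount of 16 (10.4%), the block (8.44%) and the block among brighter genes (33.1%). With arrays left out it was 0 to 2, beside 1.18% to 9.65% of all genes. The probe set count (4) was 2 with 6 arrays (1.47% of probe sets tested), 3 with a median shift (4.63%) or the block (3.64%) and 5 without the dimmest 25% (11.4%). It was 6 with a trended (10.8%) or robust spread (11%), with brighter probe sets (22.9%) and with the block among them (27.6%). With arrays left out it was 0 to 4. In Nf1-null against WT NSC the member count (0) was 2 with a trended (1.81% of genes tested called) or robust spread (2.08%). It was 1 without the dimmest 25% (0.997%) or with brighter genes (4.38%), and 2 with the block among brighter genes (11.9%). The probe set count (0) was 2 with a trended (1.01% of probe sets tested) or robust spread (1.17%) and 0 without the dimmest 25%. It was 1 with brighter probe sets (2.68%) and 3 with the block among them (6.63%). In the block fit among brighter genes, which was chosen after seeing the data, Tgfa passed at -1.83 (adjusted p = 0.0185) in that comparison and at 1.28 (adjusted p = 0.0387) in GSC against Nf1-null NSC. The block over all genes left 0 genes called in Nf1-null against WT NSC.

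Ereg in Nf1-null against WT NSC passed with a trended (adjusted p = 0.0293) or robust spread (0.0239) and without the dimmest 25% (0.0383), a filter that Ereg passed only through its Nf1-null NSC signals, and Hbegf with a trended (0.0455) or robust spread (0.0389) and with brighter genes (0.0424). Of 37 pathway genes, 1 passed in GSC against Nf1-null NSC with a trended or robust spread or brighter genes, 3 with the block among brighter genes, and 0 to 4 with arrays left out. In GSC against WT NSC (7) the count was 11 with a trended or robust spread, brighter genes or the block among them, 4 with the mean of probe sets, 2 with 6 arrays, and 0 to 9. In Nf1-null against WT NSC it was 1, 1, 1 and 2. Nf1 in GSC against WT NSC lost its call at -0.73 (quantile), -0.72 (median shift), -0.66 (mean of probe sets), -0.78 (6 arrays and block), and ranged from -0.85 to -0.70 with arrays left out.

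These uncalled log2 differences turned sign. Btc in Nf1-null against WT NSC was 0.0094 (quantile) and 0.018 (median shift) and ranged from -0.52 to 0.53 with arrays left out. In the same comparison Erbb2 ranged from -0.24 to 0.15 and Nrg1 from -0.13 to 0.94. In GSC against WT NSC the range was -0.049 to 0.68 for Erbb3, -0.53 to 0.24 for Ereg and -0.82 to 1.49 for Erbb4. Calls over all genes tested follow, among 13645 genes without the dimmest 25% and 9097 in the brighter fits. In Nf1-null against WT NSC (0) they were 329 (trended), 378 (robust), 136 (without the dimmest 25%, 0.997%), 398 (brighter, 4.38%) and 1081 (block among brighter, 11.9%). In GSC against Nf1-null NSC (319, 1.75%) they were 737, 773, 536 (without the dimmest 25%, 3.93%), 607 (brighter, 6.67%) and 944 (block among brighter, 10.4%). There they were also 149 (mean of probe sets), 29 (6 arrays), 193 (block) and 72 to 721 with arrays left out. In GSC against WT NSC (1649, 9.06%) they were 2680 (14.7%), 2767 (15.2%), 2488 (18.2%), 2472 (27.2%), 1083, 1030 (6 arrays), 3013 (block among brighter, 33.1%) and 214 to 1756. The cause of these shifts was not tested.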
